A study of Mus musculus with 7 samples.

Results

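The Eph receptors are the largest family of receptor tyrosine kinases, and their ligands, the ephrins, stay attached to the surface of the neighbouring cell. Ephrin-A ligands are held in the membrane by a lipid (GPI) anchor and bind mainly EphA receptors, so the signal needs contact between cells, and it can run into the receptor-bearing cell and back into the ligand-bearing cell. Such contacts steer migrating cells and axons, mostly by repulsion, and set boundaries between cell groups. In the embryonic heart, EphA3 takes part in forming the endocardial cushions, the swellings from which valves and septa arise.

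This family was followed here in the cardiac outflow tract (OFT), the vessel that leads blood out of the embryonic heart and gives rise to the aortic and pulmonary valves. The 9 genes considered were chosen by symbol, and the rule used no measured value. They are the ligands *Efna1*, *Efna2*, *Efna4* and *Efna5* and the receptors *Epha2*, *Epha3*, *Epha4*, *Epha5* and *Epha7*. Of these, 8 were found among the 14732 genes of the expression table, and *Epha5* was not analysed here.

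RNA-seq had been made from OFTs of mouse embryos at embryonic day 11.5. The 7 libraries were 3 wild-type control pools (replicates 3, 4 and 5) and 4 *Gata6STOP/+* pools (replicates 1, 3, 4 and 5). *Gata6STOP/+* embryos carry, in 1 copy of *Gata6*, a CRISPR-Cas9 frameshift that ends in a premature stop codon. *Gata6* encodes a zinc-finger factor that binds GATA motifs in DNA and is needed for OFT development. Each library stands for OFTs pooled from several embryos. The study's methods speak of 3 pools of 4 pairs of OFT per genotype, whereas the labels give 4 *Gata6STOP/+* pools, so the number of embryos behind the additional pool is not given in the sources used here. P-values therefore measure the spread between pools, not between embryos. The allele was present in the whole embryo, not in the OFT alone.

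The pools held 17783655 to 34467710 reads on listed genes, and each of the 8 genes rested on at least 271 reads in every pool. *Gata6* itself, the targeted gene, was at 315, 257 and 286 TMM-scaled reads per 1000000 (CPM) in the control pools and at 268, 203, 219 and 217 CPM in the *Gata6STOP/+* pools, so that the groups overlapped (log2 fold change -0.34, SE 0.10, limma adjusted p = 0.389). These reads include transcripts of the edited copy, so the level is a weak check of the genotype. All 6 cardiomyocyte markers, all 5 smooth muscle markers, all 6 endothelial and endocardial markers and all 6 cushion mesenchyme markers had reads in every pool. The summed level of each of these 4 marker lists overlapped between the genotypes. Of the single markers in these lists, *Pdgfra* alone had groups that did not overlap, as did 8.47% of all genes. It was lower in the mutants (log2 fold change -0.50, limma adjusted p = 0.354). The mutant mean was lower for 5 of 6 cushion mesenchyme, 5 of 6 cardiomyocyte, 1 of 6 endothelial and endocardial and 0 of 5 smooth muscle markers.

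The promoters are shown first, because GATA6 acts through GATA motifs and these letters can be read directly. The 250 bases before each gene's start were taken from RefSeq (GRCm38.p6), in which all 9 family genes were matched. They were searched on both strands for the letters GATAA with an A or a T before them, and likewise for GATAG. A match was found in 2 of 9 genes, beside 27.1% of 27025 mouse promoters of the same length. The windows of *Efna4* (chr3:89338029-89338278, minus strand) and *Epha3* (chr16:63864176-63864425, minus strand) hold 1 match each, in capitals, and that of *Efna5* (chr17:62881318-62881567, minus strand), a ligand gene with no match and the highest GC content of the family, is given for comparison. All are written 5′ to 3′ on the strand of the gene, ending at the base before the start.
Efna4: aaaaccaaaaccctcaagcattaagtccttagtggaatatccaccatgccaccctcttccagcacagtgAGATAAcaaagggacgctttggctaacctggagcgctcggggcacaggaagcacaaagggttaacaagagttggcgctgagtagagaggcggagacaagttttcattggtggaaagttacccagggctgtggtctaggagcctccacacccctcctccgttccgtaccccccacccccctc
Epha3: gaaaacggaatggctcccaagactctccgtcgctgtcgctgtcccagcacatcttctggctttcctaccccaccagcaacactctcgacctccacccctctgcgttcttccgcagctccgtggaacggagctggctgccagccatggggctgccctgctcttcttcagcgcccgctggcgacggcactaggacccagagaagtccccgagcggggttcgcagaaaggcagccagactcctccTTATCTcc
Efna5: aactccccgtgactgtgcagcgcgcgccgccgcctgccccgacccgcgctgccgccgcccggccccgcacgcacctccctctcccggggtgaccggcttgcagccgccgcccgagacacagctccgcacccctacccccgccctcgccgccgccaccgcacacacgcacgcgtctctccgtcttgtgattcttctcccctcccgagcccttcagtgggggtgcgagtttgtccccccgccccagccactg
In *Efna4* the letters AGATAA run from position -181 to -176 relative to the start. In *Epha3* the letters TTATCT, the same motif read from the other strand, run from -8 to -3. The *Efna5* window is 74.8% G or C with 32 CpG dinucleotides, whereas that of *Efna4* is 54.4% G or C with 7. Over all promoters the medians were 52.0% and 6. The windows of the other 7 genes lay between these, from 55.6% and 9 CpG in *Epha2* to 73.6% and 25 in *Efna2*. A match is a run of letters and not a bound site, and a window without a match says nothing about sites elsewhere.

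Compared per length, the 4 ligands summed to more than the 4 receptors in every pool, and these 4 ligands differed less among themselves than the 4 receptors did. The scale used for comparing genes was CPM per kilobase of annotated exon (mean ± SD, n = 3 control pools). *Efna1*, first found as a cytokine-induced gene of endothelial cells, was at 17.5 ± 1.30. *Efna5*, best known for guiding retinal axons to their targets, was at 15.4 ± 1.96. *Efna2*, which acts with *Efna5* in that mapping, was at 14.3 ± 1.88. *Efna4*, whose product has been linked to cranial suture development, was at 11.4 ± 1.14. The control ranges were 16.6 to 19.0 for *Efna1*, 13.4 to 17.3 for *Efna5*, 12.3 to 16.0 for *Efna2* and 10.1 to 12.3 for *Efna4*. Ranges next to each other in this order overlapped, but that of *Efna1* did not reach those of *Efna2* and *Efna4*. In every control pool *Efna4* was the lowest of the 4.

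The 4 receptors spread more widely than these 4 ligands. *Epha7*, which has a role in neural tube closure, led at 11.4 ± 0.70 CPM per kilobase and was not separated from *Efna4*. *Epha2*, a receptor typical of epithelial and endothelial cells, followed at 7.78 ± 0.15. *Epha3*, the cushion receptor, was at 2.93 ± 0.48, and *Epha4*, a receptor that also binds ephrin-B ligands, was at 1.96 ± 0.10. The control pools of *Epha7*, *Epha2*, *Epha3* and *Epha4* did not overlap each other on this scale. *Epha7* therefore made up 47.3% ± 1.65 of the summed level of the 4 receptors in the control pools, and *Epha2* 32.4% ± 1.58. Among all listed genes, *Efna1* stood above 79.8% and *Epha4* above 25.4%. With the length of the longest transcript, an alternative chosen after seeing the data, *Epha7* was at 16.7 and stood above *Efna5*, *Efna2* and *Efna4*, while the order within the ligands and within the receptors stayed as given.

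**Figure D1:**
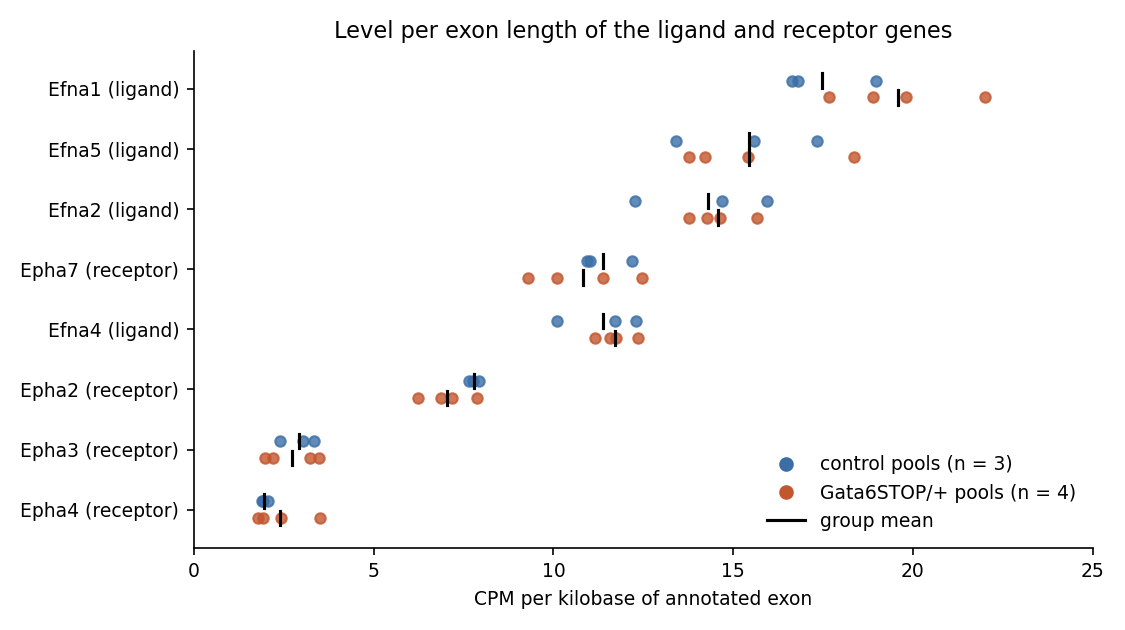
Level of each gene in CPM per kilobase of annotated exon (x axis, linear) in the 3 control pools (blue) and the 4 Gata6STOP/+ pools (orange), with group means as black ticks. The 4 ligands and Epha7 lie above 9 in every pool, whereas Epha3 and Epha4 lie below 4.

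The sums of the ligands and of the receptors overlapped between the genotypes. The summed ligand level was 58.6 ± 3.92 CPM per kilobase in the control pools and 61.3 ± 3.06 in the *Gata6STOP/+* pools (SD, n = 3 and n = 4). The summed receptor level was 24.0 ± 0.98 and 23.0 ± 3.10. The ratio of receptor to ligand sums was 0.391, 0.457 and 0.388 in control replicates 3, 4 and 5, and 0.419, 0.330, 0.344 and 0.406 in *Gata6STOP/+* replicates 1, 3, 4 and 5. The ratios overlapped too. *Epha7* again made up 47.1% ± 1.11 of the receptor sum in the mutants. The share of *Epha4* ranged over 7.79% to 8.36% in controls and 8.67% to 13.2% in mutants, the highest being replicate 1. These groups did not overlap, whereas the shares of all the other ligands and receptors overlapped between the genotypes. *Epha4* itself was at 3.51 and 2.42 CPM per kilobase in mutant replicates 1 and 5, above the control range of 1.88 to 2.07. In mutant replicates 3 and 4 it was at 1.77 and 1.91, below and inside that range. The receptor sums of mutant replicates 3 and 4 were 19.3 and 22.1, under the lowest control sum of 23.0. The higher shares of these pools therefore do not reflect a higher *Epha4* level. The shares were computed to describe the family and were not tested.

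The comparison of genotypes asked whether the loss of 1 functional *Gata6* copy altered the ligands or receptors. None of the 8 genes passed the test (limma, adjusted p under 0.05), where the background was 0 of 14732 genes (0%). At an unadjusted p under 0.05, 0 of 8 were counted beside 8.06% of all genes, and the groups overlapped for each of the 8 genes, whereas 8.47% of all genes had groups that did not overlap (4.16% with the *Gata6STOP/+* pools below and 4.31% above). On the recovered reads, edgeR's quasi-likelihood test called 0 of 8 (0% of all genes), its likelihood ratio test 0 of 8 (0.713%) and DESeq2 0 of 8 (0.597% of the 14729 genes with an adjusted p). The median log2 fold change was 0.02 over the 8 genes, 0.04 over the 4 ligands and -0.11 over the 4 receptors, beside -0.00073 over all genes. The whole tissue was sequenced, so fewer cells of a type and less RNA per cell cannot be told apart for any of these genes.

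Among the ligands, *Efna1* (ENSMUSG00000027954, GRCm38 chr3:89271733-89281142, minus strand) had control levels of 34.7, 30.4 and 30.7 CPM (replicates 3, 4 and 5, the order used throughout) and *Gata6STOP/+* levels of 36.2, 34.6, 40.3 and 32.3 CPM (replicates 1, 3, 4 and 5). The highest pools were *Gata6STOP/+*, but control replicate 3 lay above 2 of them. The means were 32.0 ± 2.39 and 35.8 ± 3.36 CPM, with a log2 fold change of 0.16 (SE 0.09, 95% interval -0.03 to 0.35, limma adjusted p = 0.684). Without control replicate 3 the groups no longer overlapped, as was then true of 14.7% of all genes, and the log2 fold change was 0.22, but it was 0.10 without *Gata6STOP/+* replicate 4. *Efna1* had the smallest unadjusted p of the 8 genes.

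*Efna2* (ENSMUSG00000003070, chr10:80179482-80190010, plus strand) was at 31.3, 26.1 and 34.0 CPM in the controls and at 29.4, 31.2, 33.4 and 30.4 CPM in the mutants. All 4 mutant pools fell inside the control range (log2 fold change 0.03, SE 0.09, interval -0.17 to 0.24, limma adjusted p = 0.947). *Efna4* (ENSMUSG00000028040, chr3:89333390-89338028, minus strand) was at 18.7, 16.1 and 19.7 CPM in the controls and at 18.8, 17.9, 19.8 and 18.5 CPM in the mutants. Its groups overlapped almost entirely (log2 fold change 0.04, SE 0.09, interval -0.15 to 0.24, limma adjusted p = 0.926). For *Efna2* and *Efna4* the lowest of the 7 pools was control replicate 4, and without it the log2 fold changes were -0.07 and -0.04, against 0.12 and 0.10 without control replicate 5.

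*Efna5* (ENSMUSG00000048915, chr17:62604184-62881317, minus strand) was at 54.1, 62.8 and 69.9 CPM in the controls and at 74.0, 55.5, 57.3 and 62.2 CPM in the mutants. The extremes of the 7 pools were a control pool at the bottom and *Gata6STOP/+* replicate 1 at the top. The group means were 62.2 ± 7.91 and 62.2 ± 8.32 CPM (log2 fold change -0.0014, SE 0.11, interval -0.24 to 0.24, limma adjusted p = 0.998), and the sign of so small a value changed with the setting.

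Among the receptors, *Epha2* (ENSMUSG00000006445, chr4:141301240-141329384, plus strand) was the most even in the controls, at 36.2, 35.7 and 37.1 CPM. Its coefficient of variation there was 1.92%, below the 3.54% of counting error alone, so the control range is narrower than counting would give. In the mutants it was at 33.6, 29.1, 36.9 and 32.1 CPM. Replicate 4 alone lay within the control range, and the other 3 mutant pools lay below it. The means were 36.4 ± 0.70 and 32.9 ± 3.23 CPM, with a log2 fold change of -0.15 (SE 0.08, interval -0.33 to 0.03, limma adjusted p = 0.701). Without *Gata6STOP/+* replicate 4 the groups did not overlap, as was then true of 13.3% of all genes, and the log2 fold change was -0.20, but it was -0.09 without *Gata6STOP/+* replicate 3.

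*Epha7* (ENSMUSG00000028289, chr4:28813131-28967499, plus strand), the receptor with the most reads, was at 108, 120 and 109 CPM in the controls and at 123, 91.9, 99.7 and 113 CPM in the mutants. The lowest pools of all were *Gata6STOP/+* replicates 3 and 4, and the highest was *Gata6STOP/+* replicate 1 (means 112 ± 6.94 and 107 ± 13.9 CPM, log2 fold change -0.08, SE 0.09, interval -0.29 to 0.13, limma adjusted p = 0.865). The log2 fold change was -0.011 without *Gata6STOP/+* replicate 3, -0.05 without *Gata6STOP/+* replicate 4, -0.03 without control replicate 4 and -0.15 without *Gata6STOP/+* replicate 1.

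*Epha3* (ENSMUSG00000052504, chr16:63543534-63864175, minus strand) was at 20.9, 26.5 and 29.1 CPM in the controls and at 30.2, 17.1, 19.1 and 28.1 CPM in the mutants. The mutant pools fell into a lower and a higher pair, with the controls between and among them. The means were 25.5 ± 4.17 and 23.6 ± 6.47 CPM (log2 fold change -0.13, SE 0.19, interval -0.55 to 0.28, limma adjusted p = 0.892). The log2 fold change was 0.0037 without *Gata6STOP/+* replicate 3, -0.05 without *Gata6STOP/+* replicate 4 and -0.03 without control replicate 5, whereas it was -0.26 without *Gata6STOP/+* replicate 1, -0.23 without *Gata6STOP/+* replicate 5 and -0.27 without control replicate 3.

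*Epha4* (ENSMUSG00000026235, chr1:77367185-77515088, minus strand) was at 15.5, 16.7 and 15.2 CPM in the controls and at 28.2, 14.3, 15.4 and 19.5 CPM in the mutants. Replicate 1 stood apart from every other pool. The coefficient of variation in the mutants was 32.7%, against 4.39% for counting error alone. In the controls it was 5.10%, against 5.39% for counting error alone. The log2 fold change was 0.24 (SE 0.19, interval -0.18 to 0.66, limma adjusted p = 0.791), and it was 0.04 without *Gata6STOP/+* replicate 1 and 0.36 without *Gata6STOP/+* replicate 3. *Epha3* and *Epha4* had the widest intervals of the 8 genes.

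**Figure D2:**
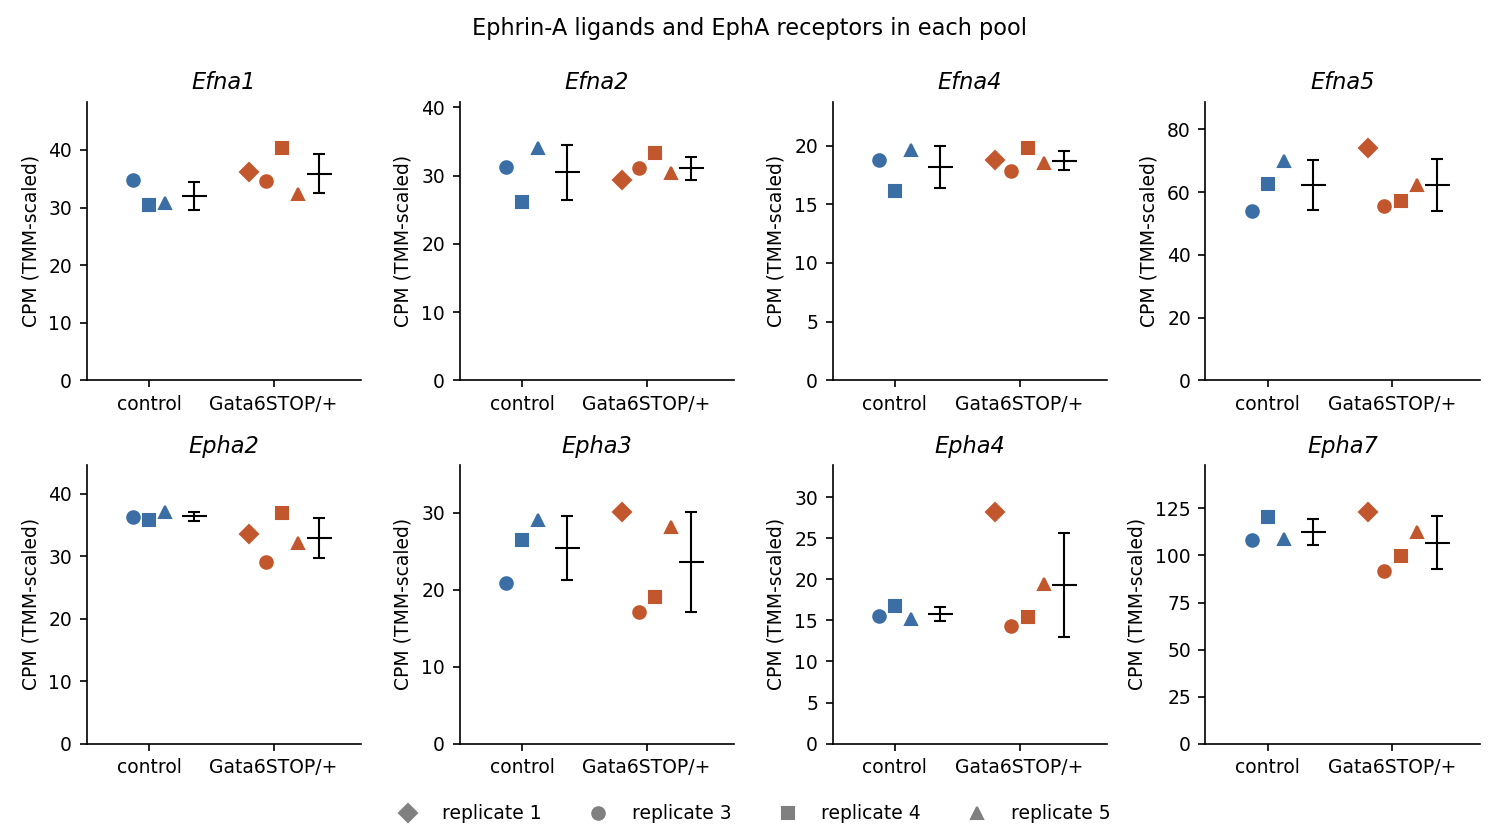
CPM (y axes, each from 0) of the 4 ligand genes (top) and the 4 receptor genes (bottom) in each control (blue) and Gata6STOP/+ (orange) pool, with the marker shape giving the replicate number and black bars the mean ± SD. The groups overlap in all 8 panels, and Gata6STOP/+ replicate 1 (diamond) is the highest pool for Efna5, Epha3, Epha4 and Epha7.

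**Figure D3:**
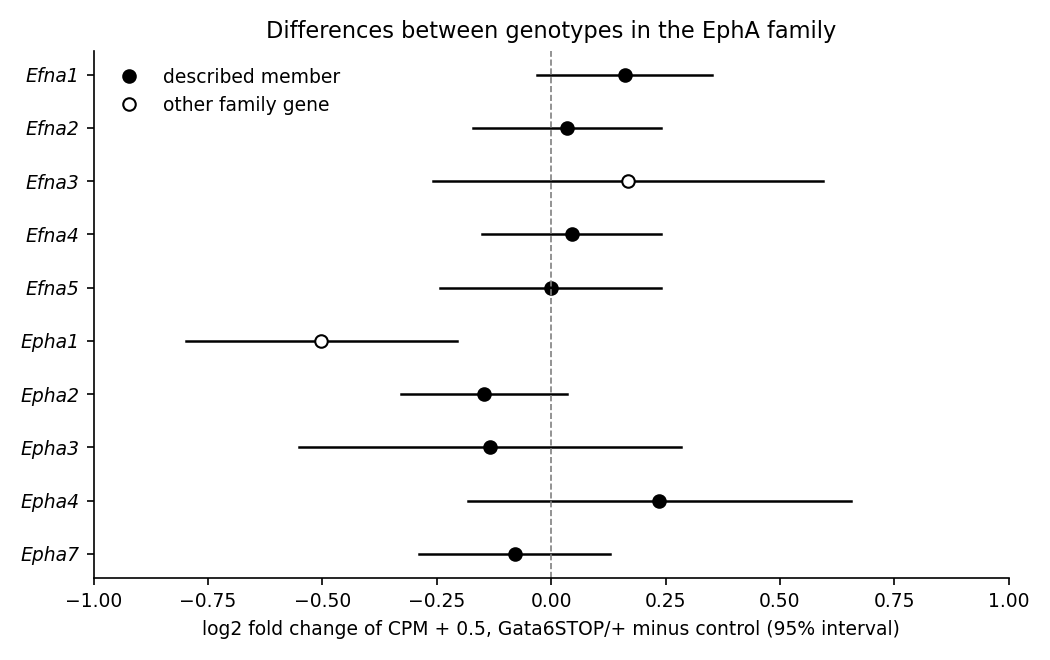
Log2 fold change of CPM + 0.5, Gata6STOP/+ minus control, with its 95% interval from limma for 10 genes of the EphA family (filled points, the 8 genes described; open points, Efna3 and Epha1). All 8 filled intervals cross 0, and that of Epha1 lies below it.

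The spread within the mutant group had a pattern that was noticed after the values were seen. In *Efna5*, *Epha3*, *Epha4* and *Epha7*, the *Gata6STOP/+* pools stood in the same order from low to high, replicates 3, 4, 5 and 1. This order held in 4 of 8 genes and in 7.96% of all listed genes, and the most common order, which was the reverse one, held in 8.05%. The ratio of replicate 1 to replicate 3 was 1.98 for *Epha4*, 1.76 for *Epha3*, 1.34 for *Epha7* and 1.33 for *Efna5*. *Efna1*, *Efna2*, *Efna4* and *Epha2* did not follow it, with ratios from 0.942 to 1.16. The control pools stood in the order 3, 4 and 5 from low to high in *Efna5* and *Epha3*. In *Epha7* they stood as 3, 5 and 4, and in *Epha4* as 5, 3 and 4. The 4 *Gata6STOP/+* pools are samples of 1 group, and the sources used here do not say what the replicate numbers stand for.

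Sums of some cell type markers had this order or its reverse. The summed level of the 6 cushion mesenchyme markers (*Sox9*, *Prrx1*, *Postn*, *Pdgfra*, *Tbx20* and *Twist1*) was 1827 CPM in replicate 1, 1712 in replicate 5, 1676 in replicate 4 and 1485 in replicate 3, the order of the 4 family genes. In control replicates 3, 4 and 5 this sum was 2186, 1651 and 2017 CPM. It was thus highest in control replicate 3, where *Efna5*, *Epha3* and *Epha7* were at their lowest among the controls. Of the 6 single markers, *Prrx1* and *Pdgfra* had that order, while *Sox9*, *Postn*, *Twist1* and *Tbx20* did not, and *Tbx20* was lowest in replicate 1 (640 CPM, against 673, 702 and 698 CPM in replicates 3, 4 and 5). The sum of the 6 cardiomyocyte markers ran the other way, from 14479 CPM in replicate 1 to 21095 in replicate 3, and in the controls it was 18040 to 20569. Of its single markers, *Nppa* and *Myh7* did not have the reversed order, and the others did. The sum of the epithelial keratins *Krt8* and *Krt18* had the same reversed order, from 83.5 CPM in replicate 1 to 117 CPM in replicate 3. *Krt8* had it alone, but *Krt18* was lowest in replicate 5 (33.1 CPM, against 34.3 CPM in replicate 1). None of these markers was at 0 in a pool. The part of such differences in the spread of *Efna5*, *Epha3*, *Epha4* and *Epha7* was not tested. The smooth muscle sum (2592 to 3454 CPM) and the endothelial and endocardial sum (704 to 882 CPM) had other orders. So did the sums of the neural crest and Schwann precursor, neuron, epicardium, erythroid and macrophage markers.

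**Figure D4:**
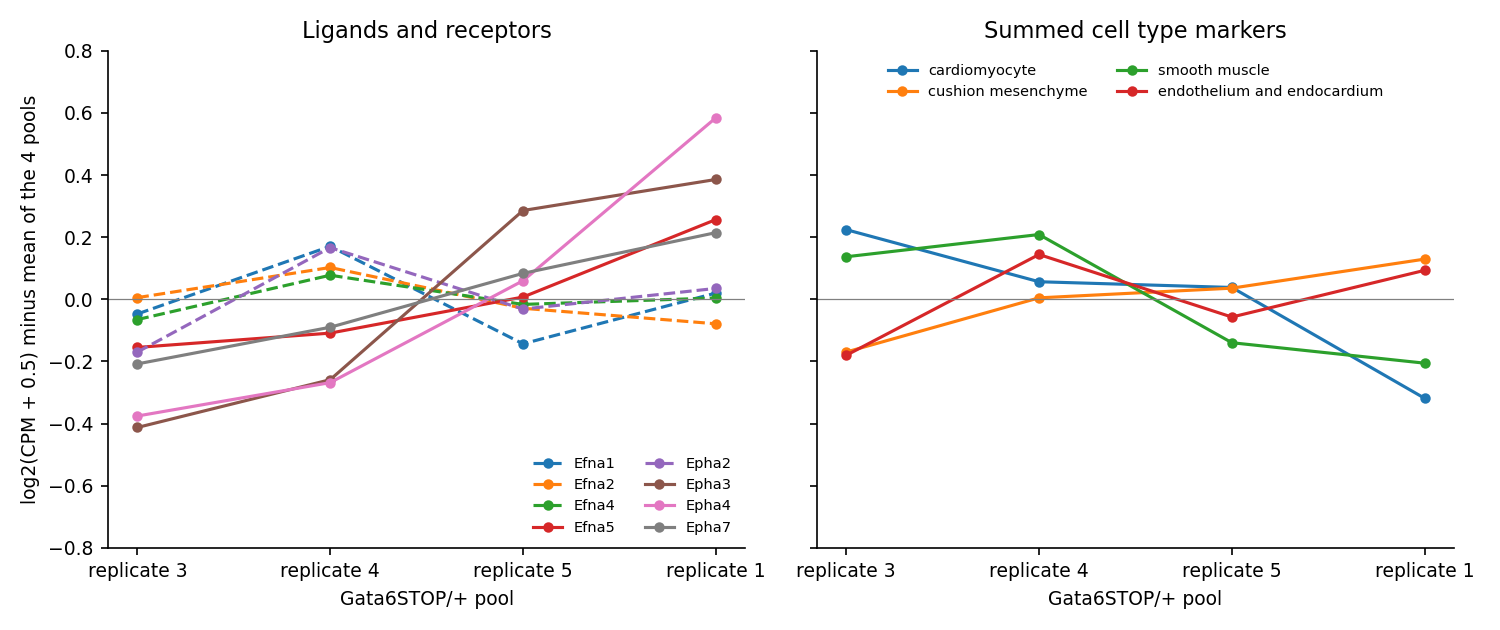
Log2(CPM + 0.5) in each Gata6STOP/+ pool minus the mean of the 4 pools, for the 8 genes (left; solid lines, Efna5, Epha3, Epha4 and Epha7, dashed lines, the others) and for the summed markers of 4 cell types (right). Pools are arranged in the order shared by the solid lines, which the cushion mesenchyme sum follows and the cardiomyocyte sum reverses.

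The genes whose profile over the 7 pools was most like that of the leading ligand and the leading receptor were found by the root mean square difference of centred log2(CPM + 0.5) among the 11619 genes that averaged 5 CPM or more. For *Efna1* these were *Grasp* (0.0253), *Slc6a17* (0.0368) and *Frmd4b* (0.0474). For *Epha7* they were *Prkd1* (0.0312), *Rab43* (0.0351) and *Arhgef5* (0.0359). Within the family, *Efna4* was nearest to *Efna1* (0.114, rank 707 of these genes), and *Efna5* was nearest to *Epha7* (0.116, rank 1197). With so few pools such likeness is a description of these libraries.

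Of the other genes of the EphA family, *Efna3* and *Epha1* were listed, and *Epha6*, *Epha8* and *Epha10* were not analysed here. *Efna3* (chr3:89313899-89322965, minus strand) lies between *Efna1* and *Efna4* on chromosome 3. It rested on 48 to 123 reads per pool, at 2.78, 2.83 and 2.69 CPM in the controls and 4.31, 2.21, 3.50 and 2.97 CPM in the mutants (log2 fold change 0.17, SE 0.19, limma adjusted p = 0.861). The value for *Efna3* was 0.04 without *Gata6STOP/+* replicate 1, its highest pool, and 0.31 without *Gata6STOP/+* replicate 3.

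*Epha1* (chr6:42358487-42373268, minus strand), an epithelial receptor, was the one gene of the family whose groups did not overlap. It was at 29.8, 19.1 and 21.8 CPM in the controls and at 17.5, 14.7, 16.0 and 16.6 CPM in the mutants. All 4 mutant pools lay below all 3 controls, and control replicate 3 stood well above the rest. The means were 23.6 ± 5.59 and 16.2 ± 1.16 CPM (log2 fold change -0.50, SE 0.13, interval -0.80 to -0.21). It did not pass the test (limma adjusted p = 0.334, range 0.0536 to 0.598 over the alternatives), and the log2 fold change was -0.32 without control replicate 3. *Epha1* overlaps *Zyx*, which encodes the adhesion protein zyxin, on the opposite strand. *Zyx* was also lower in every mutant pool, at 496, 404 and 388 CPM in the controls and 356, 352, 364 and 363 CPM in the mutants, again with control replicate 3 highest. The library kit keeps strand, but the strand setting of the counting is not given in the sources used here, so reads of these 2 genes cannot be told apart with certainty. The epithelial keratins *Krt8* and *Krt18* summed to 69.9 to 110 CPM in the controls and 83.5 to 117 CPM in the mutants, while the other 4 epithelial markers (*Epcam*, *Cdh1*, *Cldn6* and *Foxa2*) were not analysed here. Their part in the values of *Epha1* was not tested.

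The wider pathway list held 53 genes, of which 48 were listed, *Epha1* and *Efna3* included. By limma, 0 of 48 passed the adjusted threshold, and 4 of 48 had an unadjusted p under 0.05 (*Ntrk2* and *Adam10* higher, *Epha1* and *Arhgef19* lower in the mutants), a share close to the 8.06% of all genes. The groups did not overlap in 6 of 48 (12.5%, beside 8.47% of all genes), with *Ntrk2*, *Adam10*, *Grb10*, *Acp1* and *Chn1* above and *Epha1* below. The median log2 fold change of the 48 was 0.02.

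Of the 3 membrane proteins through which ephrin-A ligands signal backwards into their own cell, *Ngfr*, *Ret* and *Ntrk2*, the last had the largest difference of the list. *Ntrk2*, which encodes the neurotrophin receptor TrkB, was at 11.7, 13.2 and 16.2 CPM in the controls and at 44.7, 19.4, 26.0 and 30.9 CPM in the mutants. Every mutant pool lay above every control. The means were 13.7 ± 2.34 and 30.2 ± 10.7 CPM (log2 fold change 1.06, SE 0.22, interval 0.57 to 1.56). It did not pass in limma (adjusted p = 0.215) or in edgeR's quasi-likelihood test, and it passed in edgeR's likelihood ratio test (adjusted p = 0.00178), with adjusted p-values from 3.7e-09 to 0.515 over the alternatives. Its mutant pools had the order of *Epha3* and *Epha4*, with replicate 1 highest and replicate 3 lowest.

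Of 8 phosphatases, proteases and turnover factors, *Adam10* and *Acp1* had groups that did not overlap. *Adam10*, the protease that cuts ephrin-A ligands from the cell surface once they are bound, was at 235, 259 and 247 CPM in the controls and at 306, 266, 284 and 298 CPM in the mutants. The groups were separate but close (247 ± 12.4 and 289 ± 17.5 CPM, log2 fold change 0.22, SE 0.07, limma adjusted p = 0.398). *Acp1*, a phosphatase that acts on EphA receptors, differed less, with a log2 fold change of 0.08 (means 78.7 and 83.0 CPM, limma adjusted p = 0.783) that was 0.03 without control replicate 3.

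Of 9 listed exchange factors and GTPase-activating proteins, which pass the receptor signal to the cytoskeleton, *Arhgef19* (ephexin2) was at 10.6 ± 1.38 CPM in the controls and 8.0 ± 1.29 CPM in the mutants, with overlapping groups (log2 fold change -0.38, SE 0.14, limma adjusted p = 0.522). *Chn1* (α-chimaerin), which acts below EphA4, had groups that did not overlap at a log2 fold change of 0.05 (limma adjusted p = 0.858). *Ngef* was not analysed here. Of 16 listed kinases and adaptors, *Grb10*, an adaptor of receptor tyrosine kinases, had groups that did not overlap at a log2 fold change of 0.06 (limma adjusted p = 0.879), and *Grb7* was not analysed here. The ephrin-B ligand *Efnb2* and the receptor *Ephb2*, which bind across the A and B classes, both had overlapping groups and an unadjusted limma p above 0.05.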

How the data were processed

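Poly(A) RNA of 7 pools of OFTs was made into strand-specific libraries with the NEBNext Ultra II Directional kit and sequenced single-end. The authors trimmed the reads with Cutadapt, quantified Ensembl genes on GRCm38 with RSEM, retained those that reached 1 CPM in 3 or more samples and applied TMM normalisation in edgeR. The deposited values are CPM relative to the TMM-adjusted library sizes, and all 14732 listed genes met that filter. No fold changes or p-values of the authors were used in the tests, and of their fold changes only that of *Gata6* is quoted. Each pool's values were divided by what 1 read is worth, and 100% were then whole within 0.01. RSEM estimates need not be whole, so these are rounded estimates or counts, which the sources do not say.

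All genes were tested with limma 3.58.1 (R 4.3.3, lmFit and eBayes with trend, two-sided) on log2(CPM + 0.5) over the 7 pools without covariates, adjusted by Benjamini-Hochberg over all 14732 genes, with the threshold at 0.05. Fold changes on this scale understate those of low genes. Alternatives were constants of 0.1 and 2, a mean of at least 5 CPM, median-of-ratios scaling, a block for the replicate number, edgeR 4.0.16 and DESeq2 1.42.0 on the recovered reads, and leaving out each pool. A lower expression filter could not be tried, since the table starts at the authors' filter. Longest transcripts as lengths and group overlap without each pool were added after the values were seen. The fits were tested on simulated reads. Gene positions and lengths came from GENCODE M21 (GRCm38), in which 14716 identifiers were found. Genes named are the members, *Gata6*, the listed family genes, pathway genes whose groups did not overlap or whose unadjusted p was under 0.05, and 3 genes most like the leading ligand and receptor. *Zyx* and the marker genes stand beside results that they touch. Members and lists were chosen with earlier results of these data known. Sample columns left unused numbered 0. Some items of the gene lists are not reported here.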

Additional observations from a re-analysis of the deposited data

How the results depend on the processing

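For the 8 ligand and receptor genes, none passed the adjusted threshold under any of the 17 alternatives of each gene, and the smallest adjusted p was 0.594. Of 136 alternative values 126 kept their sign. The other 10 were all small. *Efna5* turned positive in 7 of them, at 0.0013 with edgeR's quasi-likelihood test, 0.00075 with its likelihood ratio test and 0.0014 with DESeq2. It was also positive, at 0.0084 to 0.085, without control replicate 4 or 5 or *Gata6STOP/+* replicate 3 or 4. Without control replicate 4, *Efna2* was at -0.071 and *Efna4* at -0.036. *Epha3* was at 0.0037 without *Gata6STOP/+* replicate 3. Over all single pools left out, sign kept or not, the ranges were -0.098 to 0.085 for *Efna5* and -0.071 to 0.116 for *Efna2*. They were -0.036 to 0.102 for *Efna4* and -0.27 to 0.0037 for *Epha3*. Over all genes, limma's count of 0 became 1 with a constant of 0.1 and 0 to 13 when single pools were left out (13 without control replicate 4, 2 without *Gata6STOP/+* replicate 3 and 1 without *Gata6STOP/+* replicate 1). It was 105 with edgeR's likelihood ratio test and 88 with DESeq2. In the pathway list the likelihood ratio test called 1 gene, *Ntrk2*. The causes were not tested.

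The sources used here do not say whether equal replicate numbers mark paired pools. The correlations of same-numbered deviations were -0.008, -0.118 and -0.002 for replicates 3, 4 and 5, too few to settle it. With the replicate number as a block, *Gata6STOP/+* replicate 1 has no partner and adds nothing to the contrast. The replicate block then gave 14 called genes in limma, 13 in edgeR's quasi-likelihood test and 118 in its likelihood ratio test. Among them were 1 pathway gene, *Ntrk2*, in each, and 0 of the 8 ligands and receptors. In limma the log2 fold change of *Epha3* was -0.26 with the block and -0.13 without it. That of *Epha4* was 0.04 with the block and 0.24 without it. Both blocked edgeR tests gave -0.27 for *Epha3* and 0.04 for *Epha4*. *Gata6* passed in the blocked likelihood ratio test (adjusted p = 0.0164, log2 fold change -0.42). At depths of 17783655 reads or more, counting error was 4.39% or less of the level for each of the 8 genes in the mutant group. In the control group it was 5.39% or less.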
